A study of Mus musculus with 42 samples.

Results

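The mRNA of sorted leukaemia cells was compared between mice on a diet without branched-chain amino acids (BCAA) and mice on an amino acid diet, all of them treated with 5+3 chemotherapy. The comparison was chosen by diet and treatment label and holds 11 of the 42 libraries of the series, 7 from BCAA-free mice and 4 from amino acid mice. Every mouse carried MLL-AF9 acute myeloid leukaemia, in which the chromatin regulator Mll is joined to Af9. The labels give the genotype as WT and the recipients as male mice of 8 to 10 weeks that received leukaemia cells by vein. They were not preconditioned, and apart from the lysis of red cells no step in the labels removed their own marrow cells before the sort. The leukaemia came from a single sick mouse, was grown in culture with SCF, IL-3 and IL-6, and expressed green fluorescent protein (GFP) and luciferase. Luciferase was driven by the β-actin promoter, and the labels place GFP under "the ubiquitin transporter". The BCAA-free 5+3 group (7 mice) and the amino acid 5+3 group (4 mice) both received cytarabine at 100 mg/kg a day for 5 days and doxorubicin at 3 mg/kg a day on the first 3 of them. Marrow was taken when chemotherapy had its greatest effect, red cells were lysed, and viable GFP-positive cells were sorted. The groups BCAA-free vehicle and amino acid vehicle (5 mice each, PBS in place of the drugs) are used below only to set the diet effect under chemotherapy beside the one without it.

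Leucine, isoleucine and valine are essential amino acids that cells take up through transporters such as LAT1 and break down through the BCAT transaminases and the branched-chain keto acid dehydrogenase. A shortage of amino acids is known to act through the kinase GCN2, which raises the transcription factor ATF4 and its targets, and through the kinase complex mTORC1, which slows growth when leucine is scarce. Cytarabine, a nucleoside analogue that stops DNA synthesis, and doxorubicin, a topoisomerase poison, damage DNA, and damaged or dying cells can also start an interferon response, in which factors such as the IRF family switch on antiviral and antigen presentation genes.

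The 11 mRNA libraries held 38939392 to 70437713 counts each. BCAA-free libraries had a count for 22264 to 30940 gene identifiers and amino acid libraries for 24208 to 34675. Ribosomal protein genes took 3.61 to 8.02% of the counts in BCAA-free libraries and 3.75 to 8.18% in amino acid libraries. On the first principal component of log2 CPM (a gene's counts scaled to the library total; 35.1% of the variance), amino acid mouse 4 at 50.2 and BCAA-free mouse 7 at 57.5 stood together at one end, so this axis did not follow the diet. The second (23.5%) separated the diets, at 4.34 to 50.7 in BCAA-free mice and -45.7 to -25.2 in amino acid mice. Mice are numbered by the replicate numbers of the labels. Summed over 14 marker genes of the leukaemia and of immature myeloid cells, the level was 11500 to 30138 CPM in BCAA-free mice and 11003 to 25396 CPM in amino acid mice. The 14 were Hoxa9, Meis1, Hoxa10, Hoxa7, Ptprc, Cd33, Itgam, Kit, Mpo, Elane, Ctsg, Fcgr3, Csf1r and Ly6e. Their sum does not measure a share of leukaemia cells. None of these 14 genes passed the test.

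Of 13176 protein-coding genes tested, 303 (2.30%) differed between the diets at an adjusted p below 0.05 and are called in what follows. There were 128 higher (0.971%) and 175 lower (1.33%) on the BCAA-free diet. The median log2 change over all protein-coding genes was 0.019, and an unadjusted p below 0.05 was reached by 2469 (18.7%). The values of the 7 BCAA-free mice all lay above those of the 4 amino acid mice for 116 of the 128 higher genes and all below them for 155 of the 175 lower genes. Over all protein-coding genes tested, 2.67% lay apart in the first way and 3.05% in the second. Changes were larger among the lower genes: 58 of the 175 fell at least 4-fold, and 24 of the 128 rose at least that much. When each mouse was left out in turn, 62 of the 303 genes were called in all 11 fits (20 higher and 42 lower), 134 in at least 8, and none changed sign. The number called without 1 mouse was between 82 and 458. It was 110 without amino acid mouse 1, 82 without mouse 2, 135 without mouse 3 and 103 without mouse 4. It was 197 without BCAA-free mouse 1, 458 without mouse 3, 199 without mouse 5 and 182 without mouse 6. Leaving out amino acid mouse 4 and BCAA-free mouse 7 together, which was chosen after the data were seen, gave 114.

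Cirbp, the cold-inducible RNA-binding protein, had the largest rise among the 91 higher genes eligible to be named (at least 10 CPM on average and a stable direction over pairs of mice). For each gene below, the lowest, median and highest of the 7 BCAA-free mice are followed by the values of amino acid mice 1 to 4. Cirbp (chr10:80165990-80172786, RefSeq GRCm38.p6) had 155, 399 and 616 CPM in BCAA-free mice, against 38.5, 50.1, 54.5 and 36.6 CPM in amino acid mice. Every BCAA-free mouse was far above every amino acid mouse, a 9.12-fold difference (log2 change 3.19 ± 0.37 (SE), adjusted p = 0.00131). Rbm3, the related cold-inducible protein, had 325, 425 and 617 CPM in BCAA-free mice, against 196, 229, 254 and 248 CPM in amino acid mice. Its groups were also apart, but by only 1.93-fold (log2 change 0.95 ± 0.23 (SE), adjusted p = 0.0444). The other 14 tested members of the list of cold-inducible and SR splicing proteins did not pass the test, and the median of the list was -0.0100.

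Impdh1 (chr6:29200436-29216364), an isoform of the enzyme that commits purine synthesis to guanine nucleotides, had 9.89, 27.6 and 36.8 CPM in BCAA-free mice, against 4.01, 3.94, 4.46 and 2.74 CPM in amino acid mice. The lowest BCAA-free mouse was above the highest amino acid mouse by more than the whole range of the amino acid group (log2 change 2.76 ± 0.36 (SE), adjusted p = 0.00156). Fbp1 (chr13:62864753-62888298), the gluconeogenic enzyme fructose-1,6-bisphosphatase, averaged 61.2 ± 18.1 CPM in BCAA-free mice (SD, n = 7) and 11.4 ± 2.34 CPM in amino acid mice (SD, n = 4). Its 7 BCAA-free mice lay between 37.5 and 92.9 CPM and the amino acid mice between 8.11 and 13.7 CPM, with no overlap (log2 change 2.43 ± 0.27 (SE), adjusted p = 0.00128). Fbp1 was the only called member among 24 tested glycolysis and lactate genes, whose median was -0.082. Pgrmc1, a haem-binding membrane protein, had 95.8, 115 and 159 CPM in BCAA-free mice, against 42.1, 45.5, 32.7 and 32.5 CPM in amino acid mice. The groups did not overlap (log2 change 1.71 ± 0.21 (SE), adjusted p = 0.00140). Emilin2, an extracellular matrix glycoprotein, had 12.8, 22.7 and 36.8 CPM in BCAA-free mice, against 6.56, 8.15, 7.09 and 6.86 CPM in amino acid mice. It rose 3.34-fold with no overlap (adjusted p = 0.00584), but had an adjusted p of 0.204 when the spread was estimated over all 4 groups of the study. Without any 1 mouse, Cirbp, Impdh1, Fbp1, Pgrmc1 and Emilin2 kept their calls.

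Less firmly placed were 5 more of the 10 highest genes. Prss34, a mast cell and basophil serine protease, had 7.25, 15.5 and 39.1 CPM in BCAA-free mice, against 2.67, 1.43, 1.81 and 4.21 CPM in amino acid mice, with log2 change 2.99. Calml4, a calmodulin-like protein, had 9.02, 12.9 and 49.4 CPM in BCAA-free mice, against 3.66, 2.53, 3.68 and 1.20 CPM in amino acid mice, with log2 change 2.73. Zfp52, a zinc finger protein, had 19.0, 34.5 and 108 CPM in BCAA-free mice, against 13.9, 13.8, 10.7 and 17.4 CPM in amino acid mice, with log2 change 1.76. In these 3 the groups did not overlap. Flt3, the receptor tyrosine kinase often mutated in human leukaemia, had 4.48, 35.7 and 50.2 CPM in BCAA-free mice, against 4.06, 3.26, 7.18 and 4.49 CPM in amino acid mice, and the lowest BCAA-free mouse lay within the amino acid range. Chil3, a chitinase-like protein of myeloid cells with near-identical copies, had 410.2, 1093 and 2024 CPM in BCAA-free mice, against 480.1, 201, 130.4 and 231 CPM in amino acid mice, and its groups overlapped too. Prss34 lost its call without amino acid mice 1, 2 or 3 (adjusted p up to 0.0628). Calml4 lost its call without amino acid mice 2 or 4 (adjusted p up to 0.0712). Flt3 lost its call without amino acid mice 1, 2 or 4 (adjusted p up to 0.0940). Zfp52 lost its call without BCAA-free mouse 6 or amino acid mice 1, 2, 3 or 4 (adjusted p up to 0.126). Chil3 lost its call in every fit without 1 mouse except those without BCAA-free mice 1 or 3 or amino acid mouse 1 (adjusted p up to 0.152). Rbm3 lost its call in every fit without 1 mouse except those without BCAA-free mice 2 or 3 (adjusted p up to 0.141).

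**Figure D1:**
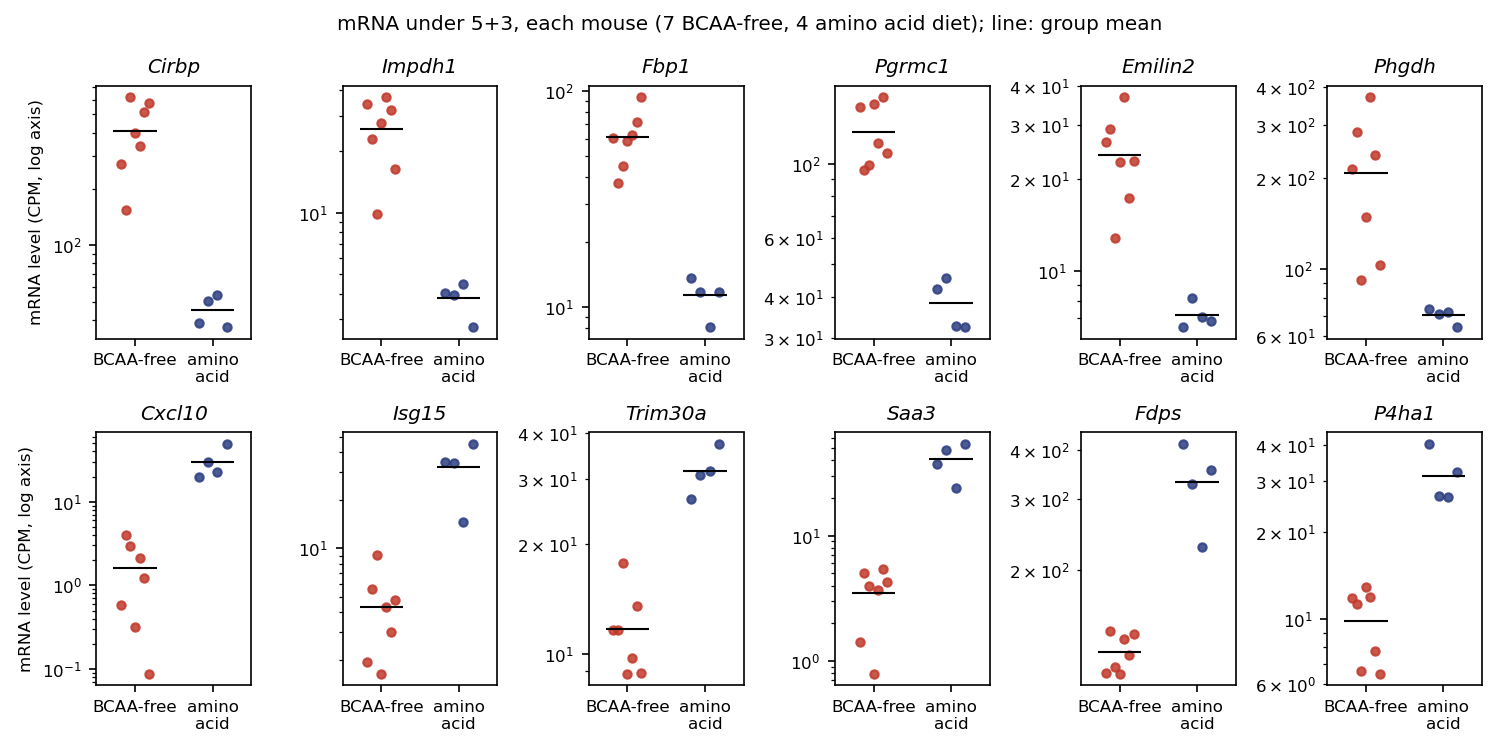
Expression of 12 genes in each mouse, in TMM-scaled CPM on a log axis, with BCAA-free 5+3 mice (7) left of amino acid 5+3 mice (4) and a line at each group mean. Cirbp, Impdh1, Fbp1, Pgrmc1, Emilin2 and Phgdh lay higher in every BCAA-free mouse, and Cxcl10, Isg15, Trim30a, Saa3, Fdps and P4ha1 lower.

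Of the gene lists described, the interferon-stimulated genes had the most members that fell by count, though not by share. Of 37 tested members of the list of 40, 14 were lower (37.8%) and none higher, against 1.33% of all protein-coding genes lower. The share lower was larger among the markers of mature neutrophils (43.8%) and red cells (41.7%). The median log2 change of the interferon list was -1.24, and 36 of the 37 were below 0. The count was 9 to 16 without 1 mouse, 9 being the value without amino acid mouse 4. The genes that fell included Cxcl10, Oasl2, Isg15, Parp14, Zbp1, Oas3, Rtp4, Rsad2, Samd9l, Oas2, Ddx58, Irf7 and Trim30a.

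Among the signalling genes of this pathway, Irf1, a transcription factor induced by interferon-gamma and named here after its values were seen, averaged 45.7 ± 4.85 CPM in BCAA-free mice (SD, n = 7) and 113 ± 27.6 CPM in amino acid mice (SD, n = 4). Its groups did not overlap (log2 change -1.30 ± 0.18 (SE), adjusted p = 0.00216). Stat2, a subunit of the transcription factor complex of type I interferon, had a log2 change of -0.79 (adjusted p = 0.128), and Irf9, which gives that complex its DNA binding, -0.61 (adjusted p = 0.185). Irf8, a monocyte and dendritic cell factor, had 9.42, 32.4 and 41.8 CPM in BCAA-free mice, against 16.1, 12.8, 28.2 and 12.5 CPM in amino acid mice and did not pass the test (adjusted p = 0.454).

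Among the effectors, Isg15, a ubiquitin-like modifier, had 1.65, 4.30 and 9.05 CPM in BCAA-free mice, against 34.9, 34.4, 14.5 and 45.0 CPM in amino acid mice. All BCAA-free mice were below amino acid mouse 3, the lowest of its group (log2 change -2.90 ± 0.41 (SE), adjusted p = 0.00308). Oasl2, an oligoadenylate synthetase-like protein, had 0.220, 0.576 and 3.16 CPM in BCAA-free mice, against 23.5, 21.6, 9.41 and 14.7 CPM in amino acid mice, a fall of 15.5-fold (adjusted p = 0.00444). Trim30a, a ubiquitin ligase, had 8.84, 11.6 and 17.7 CPM in BCAA-free mice, against 26.5, 30.8, 31.5 and 37.4 CPM in amino acid mice, with the groups apart (log2 change -1.43 ± 0.22 (SE), adjusted p = 0.00444). The chemokine Cxcl10 (chr5:92346638-92348889), which attracts T cells and NK cells through the receptor CXCR3, had 0.0881, 1.21 and 4.04 CPM in BCAA-free mice, against 19.7, 29.6, 22.7 and 49.2 CPM in amino acid mice. Every BCAA-free mouse was below every amino acid mouse (log2 change -4.22 ± 0.68 (SE), adjusted p = 0.00628). Summed markers of T and NK cells, 36.0 to 93.7 CPM in BCAA-free mice and 57.0 to 147 CPM in amino acid mice, overlapped. The cells had been sorted for GFP, so these sums cannot show how many T and NK cells the marrow held. Members outside the 14 included Ifit1 at -1.64 and Ifit3 at -0.75, with adjusted p of 0.127 and 0.753, so not every classical type I interferon target was called.

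The guanylate-binding proteins and the immunity-related GTPases, interferon-induced enzymes that act on membranes around intracellular pathogens, were looked at after their values were seen. Of 17 genes 14 were tested. All 14 had a log2 change below 0, 8 were called lower, against 1.33% of all protein-coding genes, and the median was -2.78. Iigp1, one of the 10 lowest genes of the comparison, had 0.238, 0.818 and 2.86 CPM in BCAA-free mice, against 31.7, 21.7, 5.13 and 33.1 CPM in amino acid mice. All BCAA-free mice were below amino acid mouse 3, the only mouse of its group under 20 CPM (log2 change -4.51 ± 0.61 (SE), adjusted p = 0.00220). Gbp2, another of the 10 lowest, had 1.24, 5.97 and 25.2 CPM in BCAA-free mice, against 57.6, 54.0, 31.3 and 127 CPM in amino acid mice, with a single BCAA-free mouse near the amino acid range (log2 change -2.99 ± 0.60 (SE), adjusted p = 0.0203). Gbp5 had 0.132, 0.357 and 1.38 CPM in BCAA-free mice, against 16.5, 17.4, 10.8 and 17.3 CPM in amino acid mice, again with no overlap (log2 change -4.66 ± 0.52 (SE), adjusted p = 0.00128). Irgm2 (log2 change -2.18) and Gbp7 (-1.60) were apart between the groups as well, while Irgm1 (-1.50) and Igtp (-1.70) were called with overlapping values. Gbp3 had a log2 change of -0.32 and did not pass the test (adjusted p = 0.471). Several of these genes are close copies of each other, so reads between them may be split. Gbp2 lost its call without amino acid mice 2 or 4 (adjusted p up to 0.0832). Gbp7 lost its call without amino acid mice 1, 2 or 4 (adjusted p up to 0.0681). Irgm1 lost its call in every fit without 1 mouse except those without BCAA-free mice 2, 3 or 7 or amino acid mouse 3 (adjusted p up to 0.116). Igtp lost its call in every fit without 1 mouse except those without BCAA-free mouse 2 or amino acid mouse 3 (adjusted p up to 0.128).

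Interferon acts on these genes through short promoter elements, the interferon-stimulated response element (searched as GAAANNGAAA on both strands) and the gamma-activated site (searched as TTCNNNGAA, whose reverse complement is the same pattern). They are shown for 6 genes that fell and were picked because they hold a match, as 120 bases from the 250 before the transcription start in RefSeq GRCm38.p6, read 5′ to 3′ along the gene, with matches to either pattern in capitals. The windows are chr4:156200819-156200938 (minus strand) for Isg15, chr5:92349020-92349139 (minus strand) for Cxcl10, chr3:142620543-142620662 (plus strand) for Gbp2, chr11:58199436-58199555 (plus strand) for Igtp, chr11:58214857-58214976 (plus strand) for Irgm2 and chr11:53769894-53770013 (plus strand) for Irf1.
Isg15: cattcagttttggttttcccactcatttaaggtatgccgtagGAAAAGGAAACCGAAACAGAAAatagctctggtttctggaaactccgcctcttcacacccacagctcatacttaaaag
Cxcl10: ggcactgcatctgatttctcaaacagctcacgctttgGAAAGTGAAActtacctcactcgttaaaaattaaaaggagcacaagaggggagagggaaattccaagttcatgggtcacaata
Gbp2: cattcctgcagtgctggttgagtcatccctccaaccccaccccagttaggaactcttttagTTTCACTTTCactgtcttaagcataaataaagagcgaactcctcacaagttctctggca
Igtp: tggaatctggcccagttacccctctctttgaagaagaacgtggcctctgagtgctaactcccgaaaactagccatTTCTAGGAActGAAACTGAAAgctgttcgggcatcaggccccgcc
Irgm2: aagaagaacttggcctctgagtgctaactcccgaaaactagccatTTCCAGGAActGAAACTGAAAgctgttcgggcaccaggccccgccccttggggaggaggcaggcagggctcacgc
Irf1: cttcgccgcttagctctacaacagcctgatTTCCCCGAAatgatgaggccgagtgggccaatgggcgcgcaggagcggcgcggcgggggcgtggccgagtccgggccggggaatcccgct
Isg15 has 3 overlapping matches that start 78 bases before the transcription start. The match to the first pattern begins 213 bases before the start in Cxcl10, 59 in Gbp2, 34 in Igtp and 64 in Irgm2, and Irf1 has none. A match to the gamma-activated pattern begins 90 bases before the start in Irf1, 45 in Igtp and 75 in Irgm2. The neighbouring genes Igtp and Irgm2 thus carry both patterns side by side. Over all 27025 genes with a promoter in the table, 3.46% had a match to the first pattern in these 250 bases and 8.13% to the second. The share among the lower genes is not given: only 130 of the 175 (and 28 of the 40 listed interferon-stimulated genes) had a promoter in the table, so that check is void. A match is a run of letters and not a measured binding site.

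Genes of MHC class I presentation, which load peptides for display to CD8 T cells, moved the same way in a count that depended on single mice. Of 22 tested, 5 were called lower (H2-Q7, H2-Q4, Nlrc5, H2-K1 and H2-T23), against 1.33% of all protein-coding genes. None was called higher, and the median was -0.79. H2-K1, a classical class I heavy chain, had 282, 535 and 745 CPM in BCAA-free mice, against 1276, 1194, 961 and 1656 CPM in amino acid mice. Every BCAA-free mouse was below every amino acid mouse (log2 change -1.31 ± 0.29 (SE), adjusted p = 0.0344). H2-T23, a non-classical heavy chain recognised by NK receptors, had 30.4, 44.4 and 63.1 CPM in BCAA-free mice, against 93.7, 77.8, 75.5 and 143 CPM in amino acid mice, and Nlrc5, the transactivator of class I genes, had 1.89, 4.32 and 9.90 CPM in BCAA-free mice, against 18.8, 20.1, 15.8 and 24.1 CPM in amino acid mice. Neither gene's groups overlapped (log2 change -1.13 for H2-T23 and -1.82 for Nlrc5). H2-Q4 had 0.894, 2.43 and 6.74 CPM in BCAA-free mice, against 11.3, 11.1, 9.83 and 11.9 CPM in amino acid mice, with reads that near-identical H2 genes may share. H2-Q7 had 0.795, 1.96 and 5.15 CPM in BCAA-free mice, against 19.4, 12.9, 0.936 and 21.6 CPM in amino acid mice. Its groups overlapped, as amino acid mouse 3 lay within the BCAA-free range. No member of the list was called without amino acid mouse 1, 2 or 4. There were 2 called without amino acid mouse 3, 2 without BCAA-free mouse 1, 1 without each of BCAA-free mice 4, 5 and 6, and 8 without BCAA-free mouse 7. Of 10 tested MHC class II genes none was called, and their median was 0.27.

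**Figure D2:**
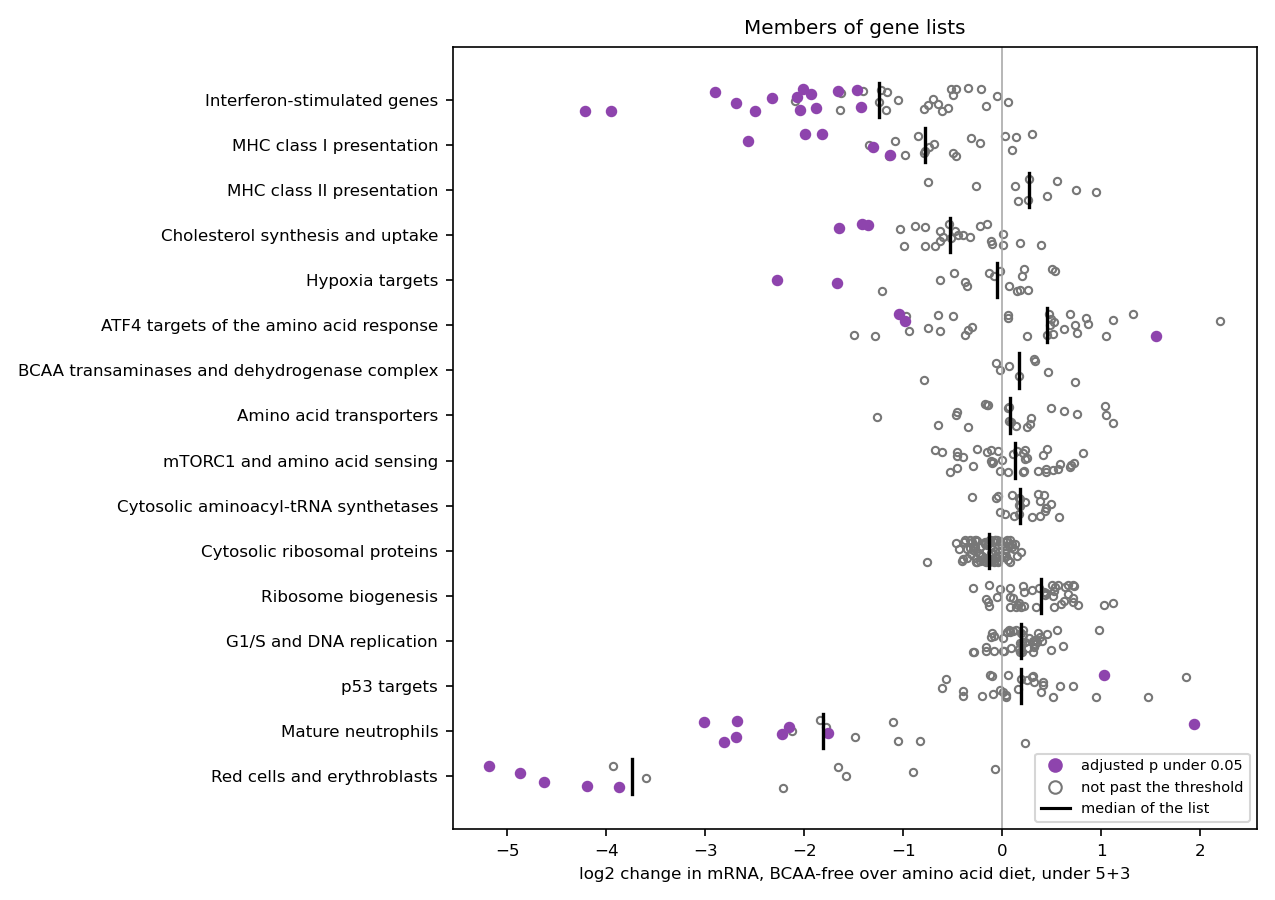
Log2 change (BCAA-free over amino acid diet, 5+3) of each tested member of 16 gene lists, with a line at the list median and filled points at an adjusted p below 0.05. Interferon-stimulated, MHC class I, cholesterol, neutrophil and red cell genes lie mostly below 0, as do ribosomal proteins with a median of -0.13 and no call. The ATF4 targets of the amino acid response have a median of 0.45, with calls on both sides, and 19 of the 23 tRNA synthetases lie above 0 with none called.

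Genes of cholesterol synthesis and uptake, which the transcription factor SREBP2 switches on when sterols are low, had a median of -0.53. Of 26 tested, 3 were called lower, against 1.33% of all protein-coding genes, none higher, and 22 were below 0. These 3 were called in all 11 fits without 1 mouse. Fdps, which makes farnesyl diphosphate, had 109.7, 122 and 140.4 CPM in BCAA-free mice, against 413, 329, 228 and 356 CPM in amino acid mice. The BCAA-free mice were close together and all below the amino acid mice (log2 change -1.42 ± 0.19 (SE), adjusted p = 0.00168). Mvd, an earlier enzyme of the same mevalonate pathway, had 4.10, 8.95 and 10.4 CPM in BCAA-free mice, against 31.4, 25.4, 23.6 and 22.5 CPM in amino acid mice (log2 change -1.65 ± 0.25 (SE), adjusted p = 0.00372). Stard4, a sterol carrier, had 11.5, 16.9 and 21.0 CPM in BCAA-free mice, against 37.9, 44.1, 46.5 and 39.6 CPM in amino acid mice (log2 change -1.36 ± 0.19 (SE), adjusted p = 0.00236). Neither gene's groups overlapped. Among 17 fatty acid synthesis and desaturation genes, with a median of -0.0020, the stearoyl-CoA desaturase Scd2 alone was called. It had 36.3, 61.3 and 89.0 CPM in BCAA-free mice, against 159.9, 156, 178 and 104 CPM in amino acid mice, with the groups apart (log2 change -1.25 ± 0.24 (SE), adjusted p = 0.0154). Scd2 lost its call without amino acid mice 1, 2 or 3 (adjusted p up to 0.0614).

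Genes of mature neutrophils, which also live in the marrow of the hosts, were called in both directions. Of 16 tested, 7 were lower and 1, Chil3, higher, against 1.33% and 0.971% of all protein-coding genes. The median of the list was -1.81. The 7 were Mmp9, S100a8, S100a9, Lcn2, Stfa1, Stfa2 and Stfa2l1. There were 2 lower without amino acid mouse 4 and 12 without BCAA-free mouse 3, and 3 were lower and none higher with no filter on low counts. In sorted cells measured in bulk, fewer cells of a type and less RNA per cell cannot be told apart. S100a8 and S100a9 encode calprotectin, an abundant cytosolic protein of neutrophils. S100a8 had 107, 351 and 1031 CPM in BCAA-free mice, against 2489.5, 1932, 1301 and 4142 CPM in amino acid mice. Amino acid mouse 4 was the highest of all 11, and the groups did not overlap (log2 change -2.68 ± 0.50 (SE), adjusted p = 0.0142). S100a9 had 45.2, 137 and 479 CPM in BCAA-free mice, against 1119, 749, 608 and 1695 CPM in amino acid mice (log2 change -2.70 ± 0.50 (SE), adjusted p = 0.0139). Lcn2, an iron-binding protein of secondary granules, had 22.7, 33.5 and 56.5 CPM in BCAA-free mice, against 126, 88.7, 59.6 and 223 CPM in amino acid mice, and Mmp9, a gelatinase, had 2.24, 4.25 and 9.89 CPM in BCAA-free mice, against 33.9, 17.2, 12.6 and 30.2 CPM in amino acid mice. In both, amino acid mouse 3 was nearest to the BCAA-free mice, and the groups stayed apart. Granule genes of the same list that did not pass were Ltf at -1.49, Camp at -2.12 and Ngp at -1.78 (adjusted p = 0.117, 0.108 and 0.0780). S100a8 lost its call without amino acid mouse 4 (adjusted p up to 0.0577). S100a9 lost its call without amino acid mouse 4 (adjusted p up to 0.0563). Lcn2 lost its call without amino acid mouse 4 (adjusted p up to 0.0551). Mmp9 lost its call without amino acid mouse 1 (adjusted p up to 0.0520). Stfa2l1 lost its call without amino acid mouse 4 (adjusted p up to 0.0526). Stfa1 lost its call without BCAA-free mice 4, 5 or 6 or amino acid mice 1, 2 or 4 (adjusted p up to 0.127).

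The stefin A cluster holds cysteine protease inhibitors of myeloid cells that lie side by side on chromosome 16. All 6 tested members were called lower, against 1.33% of all protein-coding genes, in a set drawn up after values were seen. Stfa3, with 1.26, 3.32 and 5.68 CPM in BCAA-free mice, against 24.3, 16.5, 18.2 and 58.1 CPM in amino acid mice, and Stfa2, with 1.83, 4.29 and 10.7 CPM in BCAA-free mice, against 37.0, 35.7, 25.7 and 67.8 CPM in amino acid mice, had no overlap between the groups (log2 change -3.19 and -3.02). These genes are near-identical copies, so their reads may be shared and they are not 6 separate observations. Saa3 (chr7:46711998-46719615), an acute-phase serum amyloid A protein, had 0.795, 3.99 and 5.41 CPM in BCAA-free mice, against 37.1, 48.1, 23.8 and 53.8 CPM in amino acid mice. Every BCAA-free mouse was below 6 CPM and every amino acid mouse above 20 CPM (log2 change -3.53 ± 0.42 (SE), adjusted p = 0.00140). Summed over the 16 neutrophil markers, the level was 893, 2287 and 3579 CPM as the lowest, median and highest in BCAA-free mice, against 3394, 6080 and 10322 CPM in amino acid mice. The part of these cells in the neutrophil, stefin and Saa3 values was not tested.

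Red cell genes had the lowest median of all lists, -3.74, with 5 of 12 tested members lower, against 1.33% of all protein-coding genes. The 5 were Hba-a1, Hba-a2, Hbb-bs, Hbb-bt and Slc4a1, the red cell anion exchanger, and they were 5 to 7 without 1 mouse. Hba-a1, one of the paired alpha globin genes, had 0.139, 0.639 and 2.38 CPM in BCAA-free mice, against 15.4, 7.29, 13.4 and 44.8 CPM in amino acid mice (log2 change -4.63 ± 0.71 (SE), adjusted p = 0.00498). Hbb-bs, an adult beta globin gene, had 0.238, 0.596 and 3.76 CPM in BCAA-free mice, against 17.8, 6.94, 19.9 and 48.5 CPM in amino acid mice (log2 change -4.20 ± 0.68 (SE), adjusted p = 0.00707). All BCAA-free mice were below all amino acid mice at both. The alpha globin copies, like the beta globin copies, are near-identical and their reads may be shared. The 4 globin genes together took 7.35e-05 to 0.000734% of counts in BCAA-free libraries and 0.00216 to 0.0119% in amino acid libraries. Red cells had been lysed before the sort, and summed red cell markers were 4.24, 5.71 and 32.0 CPM in BCAA-free mice, against 39.2, 65.8 and 172 CPM in amino acid mice. Their part in the other results was not tested.

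In mRNA, summed markers of the other cell types overlapped between the diets. B and plasma cell markers summed to 116, 132 and 173 CPM in BCAA-free mice, against 90.2, 118 and 140.5 CPM in amino acid mice. Of their 12 tested genes Cd79b, a chain of the B cell receptor complex, was higher (log2 change 1.05 ± 0.24 (SE), adjusted p = 0.0373). Of 12 tested eosinophil, basophil and mast cell genes 2 were higher, Gata2 and Prss34, and none lower. Over all protein-coding genes 0.971% were called higher and 1.33% lower. Gata2, a transcription factor of stem cells and of the mast cell and basophil lineage, had 15.1, 20.6 and 28.9 CPM in BCAA-free mice, against 10.6, 9.89, 12.2 and 9.25 CPM in amino acid mice, with no overlap (log2 change 1.10 ± 0.23 (SE), adjusted p = 0.0250). In the lists of T and NK cells (14 tested), megakaryocytes (8), endothelium (5), stroma and bone (11) and resident macrophages (12) none was called, and of 11 dendritic cell genes only Flt3 was. None of the listed markers was at 0 in all 11 libraries. Cd79b lost its call in every fit without 1 mouse except those without BCAA-free mice 3, 4 or 7 (adjusted p up to 0.139). Gata2 lost its call without BCAA-free mouse 1 or amino acid mice 1, 2, 3 or 4 (adjusted p up to 0.0980).

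**Figure D3:**
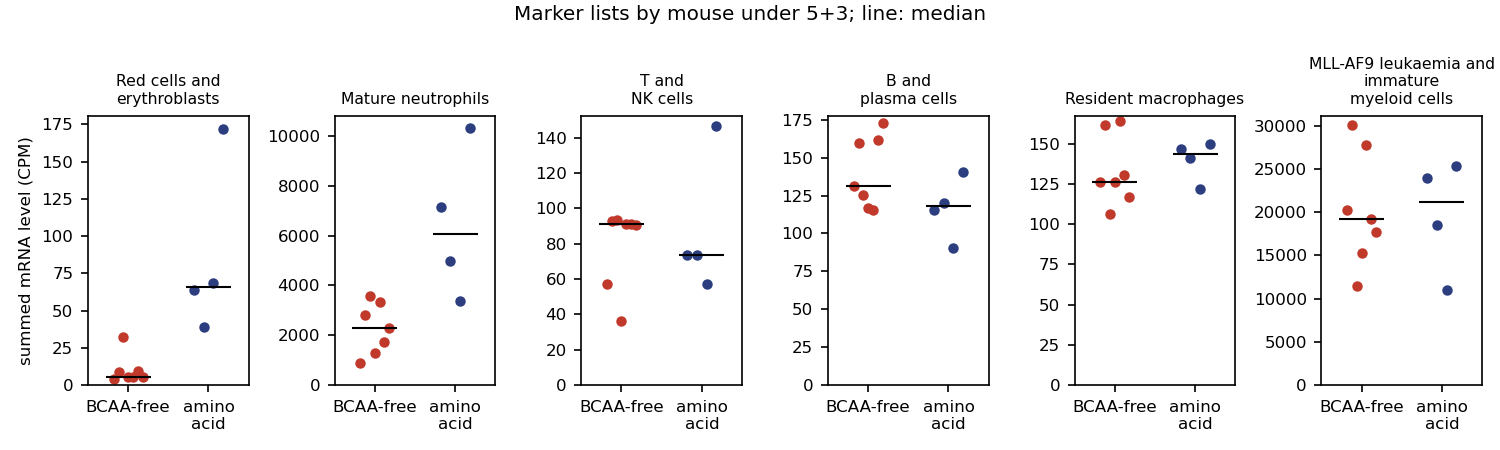
Summed CPM of the marker genes of 6 cell types in each mouse, on a linear axis, with BCAA-free 5+3 mice left of amino acid 5+3 mice and a line at each group median. Red cell markers do not overlap between the diets, and the medians of the neutrophil markers are 2287 CPM in BCAA-free mice and 6080 CPM in amino acid mice with overlapping ranges.

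Over the lists of genes that handle branched-chain amino acids themselves 1 member was called, a count near the background of 2.30% of all protein-coding genes. Of 9 tested transaminase and dehydrogenase genes none passed the test, with a median of 0.17. Bckdha, the E1 alpha subunit of the dehydrogenase, had 108, 147 and 172 CPM in BCAA-free mice, against 105, 80.6, 63.1 and 96.6 CPM in amino acid mice. Its groups did not overlap, but the difference missed the threshold (log2 change 0.74 ± 0.20 (SE), adjusted p = 0.0728). Bcat2, the mitochondrial transaminase, had 91.9, 126 and 164 CPM in BCAA-free mice, against 134, 141, 146 and 110.3 CPM in amino acid mice, and the values were mixed (log2 change -0.067 ± 0.19 (SE), adjusted p = 0.902). Bcat1, the cytosolic transaminase, was below 1 CPM in all 11 mice. Of 20 enzymes further down the pathway, Oxct1, which activates ketone bodies, was lower and the rest were not called. It had 32.8, 41.0 and 49.0 CPM in BCAA-free mice, against 68.3, 64.6, 78.1 and 85.8 CPM in amino acid mice (log2 change -0.84 ± 0.17 (SE), adjusted p = 0.0188), with no overlap. Oxct1 lost its call without amino acid mice 1, 2, 3 or 4 (adjusted p up to 0.0746).

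Targets of ATF4 were called in both directions, in counts that depended on single mice. Of 33 tested, 1 was higher and 2 lower, against 0.971% and 1.33% of all protein-coding genes, and the median was 0.45. Without 1 mouse, 0 to 3 were higher and 0 to 2 lower. Phgdh, the first enzyme of serine synthesis, had 92.3, 214 and 369 CPM in BCAA-free mice, against 74.1, 71.0, 72.1 and 64.3 CPM in amino acid mice, all BCAA-free mice being above the tightly grouped amino acid mice (log2 change 1.56 ± 0.35 (SE), adjusted p = 0.0334). Cebpg, a transcription factor that pairs with ATF4, had 19.0, 24.7 and 35.6 CPM in BCAA-free mice, against 61.3, 58.1, 52.4 and 53.03 CPM in amino acid mice and fell with no overlap (log2 change -1.04 ± 0.20 (SE), adjusted p = 0.0163). Ddit3, the stress-induced factor CHOP, had 12.6, 15.7 and 24.9 CPM in BCAA-free mice, against 26.1, 31.2, 40.9 and 36.5 CPM in amino acid mice and fell (log2 change -0.98 ± 0.22 (SE), adjusted p = 0.0356). Asns, asparagine synthetase and a standard readout of the pathway, had 147, 210.2 and 480.2 CPM in BCAA-free mice, against 189, 155, 105 and 152 CPM in amino acid mice. Its ranges overlapped, and it did not pass (log2 change 0.85 ± 0.32 (SE), adjusted p = 0.187). Atf4 itself had 73.2, 109.8 and 147 CPM in BCAA-free mice, against 138, 157, 296 and 199 CPM in amino acid mice, with the highest BCAA-free mouse above the lowest amino acid mouse (log2 change -0.83 ± 0.23 (SE), adjusted p = 0.0843). Chac1, a glutathione-degrading enzyme, had 0, 1.34 and 2.70 CPM in BCAA-free mice, against 5.14, 2.27, 2.92 and 2.05 CPM in amino acid mice, and Sesn2, a leucine sensor of the mTORC1 pathway, had 2.80, 7.76 and 22.9 CPM in BCAA-free mice, against 16.6, 8.90, 4.73 and 2.88 CPM in amino acid mice. Both overlapped between the diets (adjusted p = 0.364 for Chac1 and 0.707 for Sesn2). Phgdh lost its call in every fit without 1 mouse except those without BCAA-free mice 2, 3, 4 or 7 (adjusted p up to 0.111). Cebpg lost its call without amino acid mice 1, 2 or 4 (adjusted p up to 0.0692). Ddit3 lost its call in every fit without 1 mouse except those without BCAA-free mice 2, 3, 6 or 7 (adjusted p up to 0.136).

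Slc7a5, the LAT1 light chain that imports leucine, had 51.5, 151 and 257 CPM in BCAA-free mice, against 91.7, 72.5, 53.7 and 57.7 CPM in amino acid mice. The BCAA-free mice spanned the amino acid range and went above it (log2 change 1.12 ± 0.42 (SE), adjusted p = 0.185). None of the 22 tested amino acid transporters was called, nor any of 23 cytosolic tRNA synthetases, 38 genes of mTORC1 and amino acid sensing, 9 kinases and factors of the integrated stress response, 82 cytosolic ribosomal proteins, 45 translation factors or 42 ribosome biogenesis genes. Their medians were 0.074, 0.18, 0.12, -0.081, -0.13, 0.19 and 0.40 in that order. Of 40 autophagy and lysosome genes only Gabarapl1, an ATG8-family protein of the autophagosome membrane, was called. That count was near the 2.30% over all protein-coding genes. Gabarapl1 had 37.7, 51.9 and 63.2 CPM in BCAA-free mice, against 17.7, 22.9, 25.1 and 30.3 CPM in amino acid mice, and the groups were apart (log2 change 1.08 ± 0.20 (SE), adjusted p = 0.0144). Gabarapl1 lost its call without amino acid mice 1 or 2 (adjusted p up to 0.0659). A gene that was not called is not shown to be equal between the diets, since the median SE of a log2 change was 0.292.

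Other stress programmes were read against the 1.33% of all protein-coding genes called lower. Of 18 hypoxia targets 2 were lower (11.1%) and the median was -0.050. P4ha1, a subunit of collagen prolyl hydroxylase, had 6.50, 11.3 and 12.9 CPM in BCAA-free mice, against 40.3, 26.6, 26.3 and 32.1 CPM in amino acid mice, each BCAA-free mouse being below each amino acid mouse (log2 change -1.67 ± 0.24 (SE), adjusted p = 0.00308). Ankrd37, an ankyrin repeat protein induced by HIF-1, had 1.51, 2.56 and 3.13 CPM in BCAA-free mice, against 12.2, 13.8, 7.00 and 12.9 CPM in amino acid mice, again with no overlap (log2 change -2.28 ± 0.29 (SE), adjusted p = 0.00152). Other targets of HIF-1 were not called, among them Vegfa at -0.63 and Slc2a1 at -0.13. Of 19 cytosolic heat shock chaperones, 2 were lower (10.5%), the stress-induced HSP70 genes Hspa1a and Hspa1b. Hspa1b had 0.0767, 0.458 and 1.44 CPM in BCAA-free mice, against 17.0, 8.62, 1.92 and 2.92 CPM in amino acid mice, with amino acid mice 1 and 2 above the rest (log2 change -3.46 ± 0.67 (SE), adjusted p = 0.0163). Hspa1a had 0.0441, 0.215 and 0.665 CPM in BCAA-free mice, against 10.2, 3.87, 0.290 and 0.299 CPM in amino acid mice, amino acid mice 3 and 4 lying within the BCAA-free range, and these are near-identical copies. Of 26 genes of the unfolded protein response Creld2, an endoplasmic reticulum disulphide isomerase-like protein, was called. It had 68.2, 122 and 147 CPM in BCAA-free mice, against 213, 228, 270.4 and 207 CPM in amino acid mice, with no overlap (log2 change -0.98 ± 0.21 (SE), adjusted p = 0.0280). None of 25 immediate early genes, 32 antioxidant and NRF2 targets or 32 proteasome subunits was called, and their medians were -0.28, 0.10 and 0.25 in that order. Of 22 NF-kappa-B and inflammatory genes the chemokine Ccl6 was higher (log2 change 1.59 ± 0.32 (SE), adjusted p = 0.0203) and Saa3 lower, with a median of -0.11. Over all protein-coding genes 0.971% were called higher. Hspa1b lost its call without amino acid mice 1 or 2 (adjusted p up to 0.0802). Hspa1a lost its call in every fit without 1 mouse except those without BCAA-free mice 2 or 7 or amino acid mice 3 or 4 (adjusted p up to 0.196). Creld2 lost its call without BCAA-free mouse 1 or amino acid mice 1, 2, 3 or 4 (adjusted p up to 0.103). Ccl6 lost its call without amino acid mice 1, 2, 3 or 4 (adjusted p up to 0.0713).

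The lists of cell cycle, p53 and leukaemia genes had 0 or 1 called member each, counts near the background of 2.30% of all protein-coding genes. None of 43 G1/S and replication genes or 40 G2 and mitosis genes was called, with medians of 0.19 and 0.18. The proliferation marker Mki67 had 72.1, 103 and 178 CPM in BCAA-free mice, against 139, 147, 199 and 138 CPM in amino acid mice and overlapped between the diets (log2 change -0.50 ± 0.24 (SE), adjusted p = 0.306). Of 29 p53 targets Psrc1, a spindle protein, was higher (log2 change 1.03 ± 0.20 (SE), adjusted p = 0.0156). Cdkn1a, the p53 target that halts the cell cycle, had 83.9, 112 and 157 CPM in BCAA-free mice, against 119.95, 147, 80.0 and 84.5 CPM in amino acid mice, and Mdm2, the ligase that degrades p53, had 29.1, 49.3 and 76.0 CPM in BCAA-free mice, against 60.5, 45.4, 37.8 and 38.8 CPM in amino acid mice. Neither passed the test (adjusted p = 0.927 for Cdkn1a and 0.831 for Mdm2). Of 28 genes of the MLL-AF9 programme and stemness only Flt3 was called. The fusion's direct targets Hoxa9, with 279.8, 390.4 and 523 CPM in BCAA-free mice, against 423, 419, 313 and 277 CPM in amino acid mice, and Meis1, with 60.6, 75.3 and 95.8 CPM in BCAA-free mice, against 70.1, 68.7, 73.4 and 68.9 CPM in amino acid mice, overlapped between the diets, as did Myc with 121, 226 and 370.0 CPM in BCAA-free mice, against 221, 173, 146 and 149 CPM in amino acid mice. Their log2 changes were 0.23 ± 0.22, 0.10 ± 0.17 and 0.49 ± 0.29 (SE). Psrc1 lost its call without amino acid mice 1, 2 or 3 (adjusted p up to 0.0635).

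For the lists of this paragraph the background was 0.971% of all protein-coding genes called higher and 1.33% lower. A single call is not read as a result about its list. Of 26 myeloid lineage transcription factors Gata2 was higher and Cebpd, a factor of granulocyte and acute-phase genes, lower, with a median of -0.37. Cebpd had 50.0, 71.3 and 78.1 CPM in BCAA-free mice, against 98.0, 120.1, 111 and 117 CPM in amino acid mice, and the groups did not overlap (log2 change -0.71 ± 0.17 (SE), adjusted p = 0.0465). Of 27 monocyte and macrophage genes Emilin2 was higher and Adgre1, which encodes the macrophage antigen F4/80, lower (log2 change -1.24 ± 0.26 (SE), adjusted p = 0.0250). Of 23 genes that handle cytarabine and doxorubicin, Samhd1 was lower. Its product cleaves deoxynucleotide triphosphates, the active form of cytarabine included, and it is itself induced by interferon. Samhd1 had 34.1, 38.3 and 58.4 CPM in BCAA-free mice, against 79.7, 80.4, 62.4 and 89.7 CPM in amino acid mice, every BCAA-free mouse being below every amino acid mouse (log2 change -0.88 ± 0.19 (SE), adjusted p = 0.0286). No member was called among 16 Bcl2 family genes, 75 nuclear-encoded subunits of oxidative phosphorylation and 11 mitochondrially encoded genes, with medians of 0.14, 0.059 and -0.27. On the list of primary granule genes (13 tested) only Prss34, itself a mast cell and basophil protease, was called. Of 27 cytokine receptor and feedback genes only Flt3 was called. The list medians were -0.30 and 0.092 in that order. Cebpd lost its call in every fit without 1 mouse except those without BCAA-free mice 3 or 7 (adjusted p up to 0.161). Adgre1 lost its call without BCAA-free mouse 5 or amino acid mice 1, 2, 3 or 4 (adjusted p up to 0.109). Samhd1 lost its call without BCAA-free mice 1, 4 or 6 or amino acid mice 1, 2 or 4 (adjusted p up to 0.105).

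The same 11 mice also gave libraries of ribosome footprints, which are mRNA fragments that a translating ribosome protects from digestion. These come from the same cells, so they do not add mice. Of 9423 protein-coding genes tested in footprints 2753 (29.2%) were called, 899 higher (9.54%) and 1854 lower (19.7%). The median SE was 0.151, against 0.292 in mRNA. Of the 128 genes that rose in mRNA, 93 were tested in footprints and 64 were called higher there. Of the 175 that fell, 137 were tested and 124 were called lower, and no gene was called in the opposite direction. Among the 10 highest and 10 lowest genes 19 were tested in footprints and 18 were called the same way. The exception was Zfp52, with a log2 change of 0.24 in footprints (adjusted p = 0.387). Without amino acid mouse 1, 2 or 3, the number higher in footprints was 506, 542 and 584 in that order.

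The following gene lists had more calls in footprints than in mRNA, in the direction of their mRNA median for some and against it for others. Over all protein-coding genes, 9.54% were called higher and 19.7% lower in footprints, against 0.971% and 1.33% in mRNA. In footprints 18 of 26 cholesterol genes were lower (median -0.77), 27 of 31 interferon-stimulated genes (-1.32), 20 of 22 MHC class I genes (-1.04) and 19 of 25 genes of the unfolded protein response (-0.51). Of 23 glycolysis and lactate genes 14 were lower and 1 higher in footprints (median -0.32). Of 43 G1/S and replication genes 11 were lower and 2 higher there, and of 40 G2 and mitosis genes 10 were lower and 1 higher. Both lower counts were near the 19.7% over all protein-coding genes. The list medians were -0.16 and -0.16, against 0.19 and 0.18 in mRNA. Of 82 ribosomal protein genes 44 were higher in footprints, with a median of 0.28, against none and a median of -0.13 in mRNA. When 1 mouse was left out, 18 to 53 of them were higher in footprints. Their mRNA median was then -0.33 to 0.20, so its sign depended on single mice. Summed markers of the leukaemia and of immature myeloid cells, which overlapped in mRNA, were 7778 to 9806 CPM in BCAA-free footprint libraries and 9818 to 12083 CPM in amino acid ones. Those of eosinophils, basophils and mast cells, which also overlapped in mRNA, were 79.4 to 109 CPM and 118 to 136 CPM in the same order. Of 7 genes of that list tested in footprints, 2 were higher and 1 lower. The difference between the diet effects in footprints and in mRNA, tested in a single model with the mouse as a block, was called for 0 of 9225 protein-coding genes with edgeR. An unadjusted p below 0.05 was reached by 803 (8.70%), and DESeq2 called 28.

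**Figure D4:**
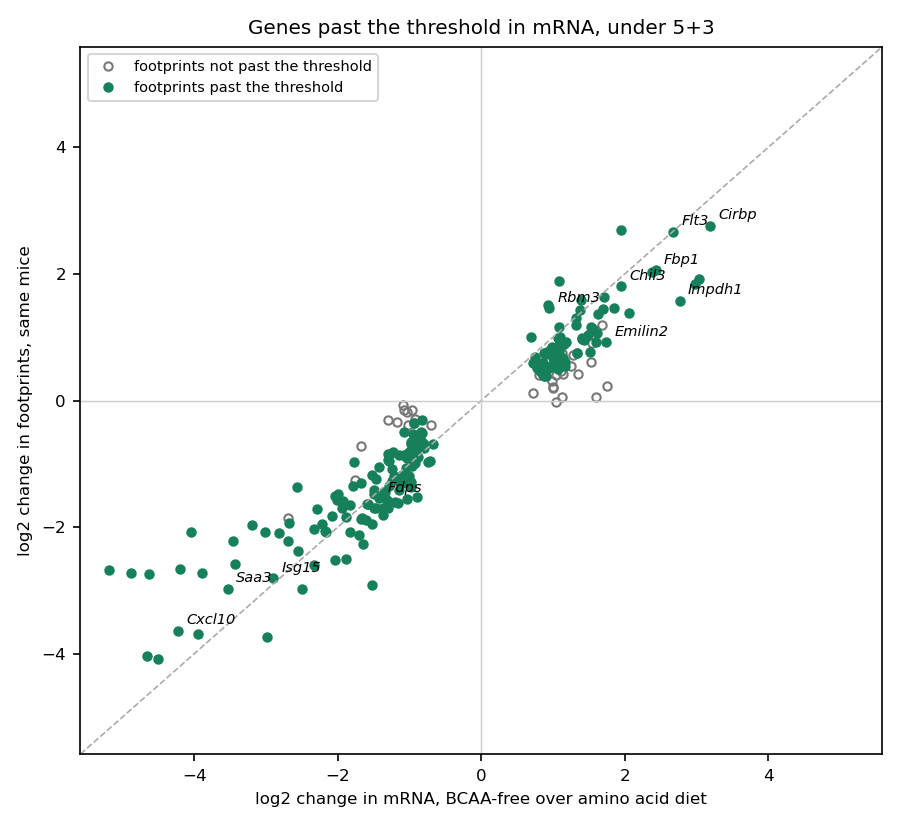
Log2 change of the protein-coding genes called in mRNA, in mRNA (horizontal) and in ribosome footprints of the same mice (vertical), BCAA-free over amino acid diet under 5+3. Of 93 higher genes tested in footprints 64 were called higher there, and of 137 lower genes 124 were called lower.

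Without chemotherapy the diets were set against each other in 5 BCAA-free vehicle and 5 amino acid vehicle mice, in a fit of all 4 groups. No protein-coding gene of 13991 was called with edgeR, the only tool run on it, and 1660 (11.9%) had an unadjusted p below 0.05. The genes called under 5+3 leaned the same way under vehicle: 89 of the 128 higher genes (69.5%) had a vehicle log2 change above 0 and 121 of the 175 lower genes (69.1%) one below 0. Over all protein-coding genes these shares were 46.8% above and 53.2% below. The median vehicle log2 change was 0.18 for the higher and -0.36 for the lower genes, against -0.041 over all.

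The difference between the diet effect under 5+3 and that under vehicle was called for 15 genes (0.107%), 5 with a higher effect (0.0357%) and 10 with a lower one (0.0715%), while 1957 (14.0%) had an unadjusted p below 0.05. These genes were named because of their values. The globin genes Hbb-bt, Hba-a2, Hba-a1 and Hbb-bs and the acute-phase gene Saa3 were called in all 21 fits that left out 1 mouse. Saa3 averaged 3.52 ± 1.77 CPM in BCAA-free 5+3 mice (SD, n = 7), 40.2 ± 13.4 CPM in amino acid 5+3 mice (n = 4), 19.5 ± 7.01 CPM in BCAA-free vehicle mice (n = 5) and 13.3 ± 5.45 CPM in amino acid vehicle mice (n = 5). Its diet effect was lower under 5+3 by 4.06 on the log2 scale (SE 0.59, adjusted p = 0.00199). S100a8 averaged 383 ± 304 CPM in BCAA-free 5+3 mice (SD, n = 7), 2437 ± 1235 CPM in amino acid 5+3 mice (n = 4), 1672 ± 229 CPM in BCAA-free vehicle mice (n = 5) and 1003 ± 231 CPM in amino acid vehicle mice (n = 5). In vehicle mice the BCAA-free mean was the higher one and in 5+3 mice it was the lower one (interaction -3.41 ± 0.59, SE). Fbp1 averaged 61.0 ± 17.3 CPM in BCAA-free 5+3 mice (SD, n = 7), 11.2 ± 2.34 CPM in amino acid 5+3 mice (n = 4), 24.3 ± 6.47 CPM in BCAA-free vehicle mice (n = 5) and 18.4 ± 5.97 CPM in amino acid vehicle mice (n = 5), and stood apart in BCAA-free 5+3 mice (interaction 2.05 ± 0.39, SE). The number called was 5 to 27 without 1 mouse. It was 9, 8, 9 and 5 without amino acid 5+3 mice 1 to 4, 25 without BCAA-free 5+3 mouse 3, 27 and 23 without BCAA-free vehicle mice 1 and 4, and 7 without amino acid vehicle mouse 4. S100a8 lost its call without amino acid 5+3 mouse 4 (adjusted p = 0.0685) or amino acid vehicle mouse 4 (adjusted p = 0.0571). Fbp1 lost its call in 15 of the 21 fits, those without BCAA-free 5+3 mice 1 and 4 to 7, amino acid 5+3 mice 1 to 4, BCAA-free vehicle mice 2 and 3 or amino acid vehicle mice 1 to 4 (adjusted p up to 0.144). The globin genes are themselves markers of red cells, whose part in these differences was not tested.

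**Figure D5:**
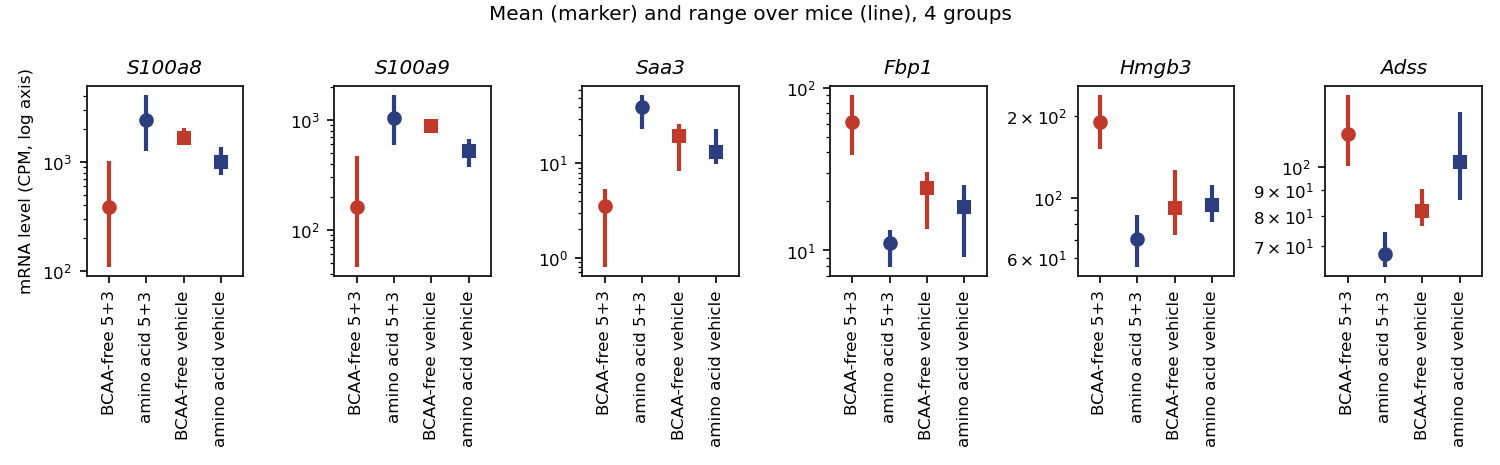
Mean CPM (marker) and range over mice (line) of 6 genes in BCAA-free 5+3 (7 mice), amino acid 5+3 (4), BCAA-free vehicle (5) and amino acid vehicle mice (5), on a log axis. For S100a8, S100a9 and Saa3 the BCAA-free mean is the lower one under 5+3 and the higher one under vehicle, and Fbp1 has its highest mean, 61.0 CPM, in BCAA-free 5+3 mice.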

How the data were processed

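Marrow leukaemia cells sorted from each mouse were lysed with cycloheximide, and 2 µl of lysate went into a Smart-seq2 mRNA library, per the labels' protocols. The values are whole-number counts per gene as the authors deposited them, not normalized. Tools named in the submitters' processing notes are STAR, Bowtie2, featureCounts, SAMtools and cutadapt, with the build GRCm38 (mm10). What each did, its version, the strand setting and the annotation were not given in the sources used here, so reads of overlapping or antisense genes cannot be told apart. The table holds 55487 gene identifiers, of which 55141 (99.4%) matched a symbol and 38571 (69.5%) RefSeq GRCm38.p6. The 21371 protein-coding ones are counted here, and p-values were adjusted over all 19257 genes tested.

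Counts were fitted in R 4.3.3 with edgeR 4.0.16, over the 11 libraries of the comparison, with TMM scaling, filterByExpr (minimum count 10, minimum total 15), the robust quasi-likelihood test and Benjamini-Hochberg adjustment. The fit was tested on simulated data. CPM are TMM-scaled, and each SE is the log2 change divided by the root of its F statistic. The differences from vehicle were fitted over all 21 mRNA libraries, and those between footprints and mRNA over 22 libraries. Alternatives used DESeq2 1.42.0 and limma 3.58.1. Tables and figures were made in Python 3.11.15 with pandas 2.3.3 and matplotlib 3.10.9.

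Named genes were the 10 highest and 10 lowest called protein-coding genes with a mean of at least 10 CPM and at least 75% of the 28 pairs of mice going the same way. Rik symbols, numbered Gm symbols and immunoglobulin or T cell receptor segments were passed over. Each list also supplied its members of smallest adjusted p, up to 4 of them, and a panel was given whatever its values: Asns, Atf4, Bcat1, Bcat2, Bckdha, Cdkn1a, Chac1, Ddit3, Hoxa9, Mdm2, Meis1, Mki67, Myc, Sesn2 and Slc7a5. Other genes were named after their values were seen. The comparison, lists and panel were chosen with earlier results of these data known. Genes in a list that are too low in every library were not tested, and a gene can pass the filter through the group where it is high.

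No 2 libraries of a group agreed within sampling noise (chi-square per degree of freedom 39.8 to 684 in mRNA). The labels call them biological replicates, and do not say whether mice were handled in batches. Replicate numbers did not pair the mice, so no block was used in the comparison of the diets.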

Additional observations from a re-analysis of the deposited data

Results flagged for a closer look

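Among 134 groups of 4 to 7 mice examined, 8 had a single mouse far from the others, and chance flags about 1 in 20 groups. In BCAA-free mice the highest value stood apart for Calml4 (49.4 CPM, the next 23.9), Gbp2 (25.2 CPM, the next 10.8), Hba-a2 (0.664 CPM, the next 0.176), Hbb-bt (1.02 CPM, the next 0.511) and Hspa1a (0.665 CPM, the next 0.298). In amino acid mice the highest value stood apart for Bcat1 (0.646 CPM, the next 0.253) and Mki67 (199 CPM, the next 147), and the lowest for Ccl6 (3.92 CPM, the next 5.58).

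For 15 genes the effect of the diet was called different between 5+3 and vehicle by the test of the difference itself. Among them, only the globin genes and Saa3 kept their calls whichever mouse was left out. On the log2 scale the effect under 5+3 minus that under vehicle was -7.47 for Hbb-bt, -7.39 for Hba-a2, -6.86 for Hba-a1 and -6.65 for Hbb-bs, the globin genes. It was -4.06 for Saa3, -3.46 for S100a9, -3.41 for S100a8 and -3.33 for Wfdc21. It was -4.17 for Guca1b and -1.24 for Il21r, an interleukin receptor chain. The effect was the higher one under 5+3 for Fbp1 (2.05), Hmgb3 (1.47), Pex7 (1.36), D16Ertd472e (1.34) and Adss (1.09). Without amino acid 5+3 mouse 2, 3 or 4, 0 genes were called with a higher effect. Hmgb3 encodes a chromatin protein of immature blood cells, and Adss an enzyme of AMP synthesis.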

How the results depend on the processing

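The 303 calls in mRNA became 82 to 458 when each mouse was left out (24 to 200 higher, 58 to 258 lower), 114 without amino acid mouse 4 and BCAA-free mouse 7 together (48 and 66; chosen after seeing the data), 533 with no filter on low counts (243 and 290) and 1024 with DESeq2 (522 and 502), which called 301 of the 303. By DESeq2 51.0% of calls were higher, against 42.2% in the edgeR test. Scaling by totals only gave 82 higher and testing protein-coding genes only gave 197 higher. Median-ratio and upper-quartile scaling, limma-voom, a minimum count of 50 and a fit of all 4 groups kept the total within 1.5 times. The cause of these changes was not tested. With the replicate number as a block, 1 gene was higher and 0 lower in mRNA, and 1561 (441 and 1120) were called in footprints. The number does not pair the mice: deviations of same-numbered mice correlated at 0.50, 0.16, 0.36 and -0.48, and only mouse 3 correlated best with its own number. In footprints the higher calls were 506 to 1000 without 1 mouse, and 573 without both mice named above. The difference between footprints and mRNA was called for 60 genes with no filter, 28 with DESeq2 and 0 to 1 without 1 mouse. The interaction was called for 5 to 27 genes without 1 mouse (0 to 9 higher, 5 to 18 lower), 150 with DESeq2 (54 and 96), 6 with the replicate block (1 and 5), 17 lower with median-ratio scaling and 2 higher with no filter. Bcat1 and Cdkn1a, near 0, changed sign: Bcat1 was 0.084 with no filter, 0.0091 over all 4 groups, 0.12 without both mice and -0.40 to 0.51 without 1, Cdkn1a was -0.016 with the block, -0.0052 without both mice and -0.058 to 0.25 without 1, and Bcat2 was 0.021 with no filter. With 4 amino acid mice the median SE was 0.292, which limits the calling of small changes.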

Other observations

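The UDP glucuronosyltransferase 1a locus, whose products attach glucuronic acid to bilirubin, steroids and drugs, was looked at after its values were seen. All 9 tested transcripts of the locus were called higher on the BCAA-free diet, against 0.971% of all protein-coding genes. Their median log2 change was 0.98. Ugt1a7c had 31.0, 39.6 and 56.3 CPM as the lowest, median and highest of the BCAA-free mice, against 22.1, 13.8, 19.3 and 19.4 CPM in the amino acid mice, with no overlap. These genes share their last exons, so the 9 calls rest largely on the same reads and count as a single locus. In footprints 4 of the 9 were higher, against 9.54% of all protein-coding genes tested there.

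Cxcl9, a second ligand of the receptor CXCR3, was called together with Cxcl10. It had 0.0367, 0.149 and 1.67 CPM in BCAA-free mice, against 2.62, 3.75, 2.74 and 7.69 CPM in amino acid mice (log2 change -3.57, adjusted p = 0.0407 by edgeR). The groups did not overlap, but the call was lost in 9 of the 11 fits without 1 mouse, all but those without BCAA-free mouse 2 or 7 (adjusted p up to 0.131).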
